A study of Homo sapiens with 6 samples.

Results

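The 10 transcription factor genes described here specify the neural crest in the vertebrate embryo, and their mRNA was measured in A375SM human melanoma cells that carried a hairpin RNA against PRAME (shPRAME) or a control hairpin (shCtrl). They were taken as a list of symbols, namely the AP-2 family genes TFAP2A, TFAP2B and TFAP2C and the genes FOXD3, PAX3, MSX1, MSX2, MEIS1, MEIS2 and ETS1, and all 10 were found by NCBI gene ID among the 40895 gene IDs of the count files. The genes were selected on the shPRAME against shCtrl values of these same libraries, so the differences between the groups are given below as a description of these genes, with no p-value. A375SM is a metastatic subline of the melanoma line A375. Each group had 3 polyA RNA libraries sequenced as read pairs of 150 bases, with the labelled genotype WT and the batch label 1 throughout, and the 2 groups differ in the labels only in the hairpin. The labels do not say whether libraries of a group came from separate transductions or from cultures of 1 transduced population, nor how many hairpins were used, so the spread between libraries may be technical.

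The neural crest is a population of migratory cells that arises at the border of the neural plate and gives rise to melanocytes, peripheral neurons and glia, and much of the facial skeleton. Signals at the border, BMP among them, first switch on border genes such as MSX1, MSX2, PAX3 and TFAP2A, and specifiers such as FOXD3, ETS1 and SOX10 follow. Melanoma cells descend from this lineage and often keep or regain part of its transcription factor set. AP-2 factors bind DNA as dimers with each other, MSX, PAX3 and MEIS proteins carry homeodomains, FOXD3 is a forkhead factor and ETS1 the founding member of the ETS family.

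Library totals lay between 30842788 and 34107332 counts, so that 3 counts, the most that an observed 0 allows at about 95% confidence, corresponded to 0.088 to 0.0973 CPM over the unadjusted totals, for counting error only. All other CPM values (counts scaled to an equal library size) use TMM-adjusted totals. PRAME, the targeted gene, had 57.7, 57.8 and 53.8 CPM in shPRAME and 166.4, 163.9 and 164.8 CPM in shCtrl, and stood at 34.2% of the control level (edgeR adjusted p = 4.85e-17). Of the defining markers of pigmented melanocytes, TYR had no count in any library and MLANA 1 count in all. SOX10, the crest and melanocyte factor, stood at 275.4 ± 1.48 CPM in shPRAME and 265.7 ± 7.95 CPM in shCtrl (mean ± SD, n = 3 each). Of 7 melanocyte and melanoma markers 4 were tested, 1 higher and 2 lower. S100A1 was higher, at 91.7 CPM in shPRAME and 65.9 CPM in shCtrl. S100B (28.2 and 54.0 CPM) and MITF (37.7 and 44.6 CPM) were lower. The sum of the 7 ranged from 432.6 to 434.0 CPM in shPRAME and 421.1 to 437.1 CPM in shCtrl. Summed markers of other cell types ranged over libraries from 255.9 to 269.7 CPM in shPRAME and 189.0 to 191.9 CPM in shCtrl for neurons (3 of 7 tested, all higher, ELAVL4 and STMN2 at 0), and from 88.1 to 95.3 CPM in shPRAME and 112.5 to 116.3 CPM in shCtrl for fibroblasts (5 higher and 2 lower of 7 tested). TUBB3 made up most of the neuronal sum, at 215.1 ± 9.68 CPM in shPRAME and 187.2 ± 1.68 CPM in shCtrl (log2 fold change 0.20). The neuronal gene SYT1 had 1580, 1666 and 1580 counts in shPRAME and 93, 97 and 100 in shCtrl. Among the fibroblast genes the collagen gene COL1A2 had 718, 735 and 704 counts in shPRAME and none in shCtrl, while PDGFRB and FAP were the lower ones. For leukocytes the sum was 72.4 to 74.3 CPM in shPRAME and 43.0 to 45.4 CPM in shCtrl, with 3 of 6 tested, all higher, and CD3E at 0. CD68 made up most of it, PTPRC had 36, 29 and 27 counts in shPRAME and none in shCtrl, and LYZ had 44, 39 and 48 counts in shPRAME and 4, 2 and 1 in shCtrl. For endothelial cells the sum was 2.82 to 3.53 CPM in shPRAME and 0.227 to 0.562 CPM in shCtrl, with CDH5 at 0, and TEK, the only one of 5 markers tested, was higher, with 77, 99 and 105 counts in shPRAME and 1 in each shCtrl library. For keratinocytes it was 23.2 to 24.4 CPM in shPRAME and 27.7 to 29.6 CPM in shCtrl, with KRT10, the only one tested, lower and KRT5, KRT1 and TP63 at 0. SNAP25, COL1A1, COL1A2, COL3A1, LUM, PTPRC, LYZ and TEK passed the filter on low counts only through their shPRAME libraries. A call for these genes could hardly be other than higher. Over all tested genes 37.7% were called higher and 36.8% lower. The part of these cell types in the values below was not tested, and in bulk RNA fewer cells of a type and less RNA per cell cannot be told apart.

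The crest specifiers split in shPRAME cells. TFAP2B, which had almost no reads in control cells, became the most strongly expressed AP-2 gene, MEIS1 was about 3 times its control level and TFAP2A slightly higher, whereas FOXD3, MSX2, TFAP2C, MSX1, ETS1 and PAX3 were lower and MEIS2 was nearly level. All 10 passed the filter on low counts, TFAP2B only through its shPRAME libraries. For TFAP2B a call could therefore hardly be other than higher. In the fit across all genes 9 of the 10 were called at an adjusted p under 0.05 (edgeR), 3 higher and 6 lower, where 74.4% of all 15954 tested genes were called, 37.7% higher and 36.8% lower. At least a 2-fold difference was called for 6, 2 higher and 4 lower, where 18.6% of all tested genes had one, 10.1% higher and 8.43% lower. The members' median log2 fold change was -0.71 and their median absolute value 1.11, beside 0.01 and 0.38 over all tested genes. Because the members were selected on these same values, neither the medians nor the counts test them against all genes. The groups did not overlap at 9 of the 10, with shPRAME higher at 3 and lower at 6, where 76.5% of all tested genes did not overlap, 38.7% with shPRAME higher and 37.8% with shPRAME lower.

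**Figure D1:**
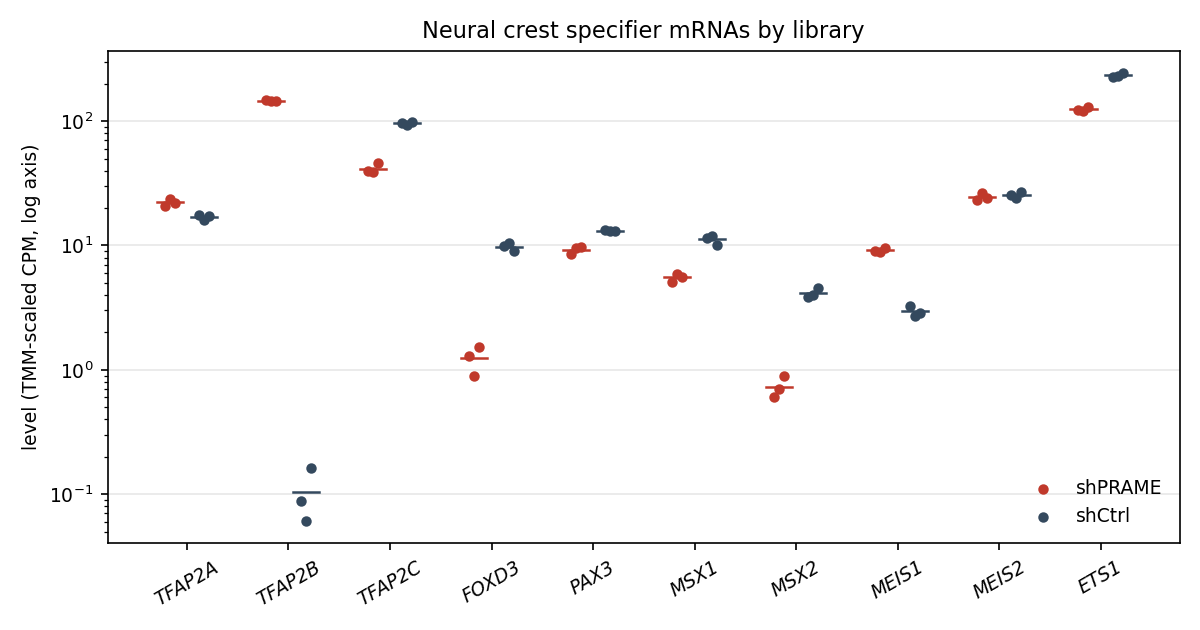
Level of each of the 10 genes in TMM-scaled CPM on a log axis, with 1 point per library and a line at the mean of 3 libraries, shPRAME left of shCtrl. TFAP2B lies at 143.9 to 147.3 CPM in shPRAME and 0.0612 to 0.162 CPM in shCtrl, FOXD3 and MSX2 lie well below their control points, and the points of MEIS2 overlap.

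The DNA just upstream of the 2 members with the highest log2 fold changes and the 2 with the lowest is shown so that the reader can see which promoters these are. Each line is 300 bases of RefSeq sequence (GRCh38.p14), from 250 bases before to 50 after a transcript start, 5′ to 3′ on the gene's own strand, which is the plus strand for all 4. Capitals mark matches to 6 short motifs searched on both strands: AP-2 (GCCNNNGGC), MEIS (TGACAG), ETS (CCGGAAG), forkhead (TGTTTAC), the PAX3 paired domain (GTCACGC) and MSX (CAATTA).
TFAP2B, chr6:50818621-50818920: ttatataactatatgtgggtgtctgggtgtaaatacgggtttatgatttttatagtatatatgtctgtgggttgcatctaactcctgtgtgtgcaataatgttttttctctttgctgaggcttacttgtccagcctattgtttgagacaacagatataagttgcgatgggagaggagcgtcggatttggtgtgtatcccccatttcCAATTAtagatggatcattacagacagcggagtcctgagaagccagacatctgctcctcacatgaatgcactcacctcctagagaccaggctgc
MEIS1, chr2:66434875-66435174: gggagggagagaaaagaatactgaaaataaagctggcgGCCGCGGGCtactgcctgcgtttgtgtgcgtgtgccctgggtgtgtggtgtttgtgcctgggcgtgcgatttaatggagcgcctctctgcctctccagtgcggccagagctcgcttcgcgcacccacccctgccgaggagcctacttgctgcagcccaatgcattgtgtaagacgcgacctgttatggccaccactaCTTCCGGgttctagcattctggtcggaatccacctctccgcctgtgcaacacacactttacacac
FOXD3, chr1:63322317-63322616: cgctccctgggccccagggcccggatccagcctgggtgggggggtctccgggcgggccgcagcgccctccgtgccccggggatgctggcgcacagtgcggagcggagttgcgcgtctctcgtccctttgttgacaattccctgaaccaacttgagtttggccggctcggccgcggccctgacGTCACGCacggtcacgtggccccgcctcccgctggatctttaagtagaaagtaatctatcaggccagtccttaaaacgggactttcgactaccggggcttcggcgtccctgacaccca
MSX2, chr5:174724332-174724631: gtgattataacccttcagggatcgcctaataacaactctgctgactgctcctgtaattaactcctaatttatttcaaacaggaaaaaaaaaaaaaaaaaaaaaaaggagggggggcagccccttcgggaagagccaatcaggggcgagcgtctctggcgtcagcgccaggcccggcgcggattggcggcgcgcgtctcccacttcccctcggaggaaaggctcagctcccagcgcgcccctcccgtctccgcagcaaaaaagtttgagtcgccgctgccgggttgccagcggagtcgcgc
The TFAP2B window held 1 MSX match, 44 bases before the start, and the FOXD3 window 1 PAX3 paired domain match, 68 bases before it. The MEIS1 window held an AP-2 match 212 bases before and an ETS match 15 bases before the start, and the MSX2 window held none. Among 34943 promoter windows of this length, 23.2% held the AP-2 letters, 15.8% the MEIS, 10.2% the ETS, 7.39% the MSX, 3.42% the forkhead and 2.51% the PAX3 letters. A window for 8 of the 10 members stands in the RefSeq table, with a pair each for TFAP2A and MEIS2, and over their 10 windows 1 held the AP-2, 1 the ETS, 1 the MSX and 1 the PAX3 letters. The windows differ in base composition, from 43% G and C for TFAP2B to 74.7% for MSX1. The TFAP2B start in the window lies inside the annotated gene (chromosome 6, 50818355 to 50847619), whose span begins upstream of it.

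The AP-2 family changed its composition. AP-2 proteins act in crest induction and in melanocytes, where TFAP2A works beside MITF. TFAP2B is needed for the development of the face, heart and limbs, and TFAP2C is best known from the trophoblast, germ cells and breast cancer. TFAP2B (NCBI gene 7021) had 4603, 5039 and 4967 counts in the shPRAME libraries and 3, 2 and 5 counts in the shCtrl libraries, or 145.8 ± 1.77 CPM in shPRAME and 0.104 ± 0.0522 CPM in shCtrl (mean ± SD, n = 3 each). No control library held more than 5 of its counts. Scaled to the library totals, the ratio of summed counts was 1469, with a 95% counting interval of 798 to 3063 from an exact binomial interval, and the fitted log2 fold change of 10.42 ranked 18 from the top among 15954 genes.

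TFAP2C (NCBI gene 7022, chromosome 20, 56629306 to 56639283) had 39.5, 39.3 and 45.7 CPM in shPRAME and 96.2, 93.2 and 97.6 CPM in shCtrl. All shPRAME libraries lay under all control libraries, with shPRAME replicate 3 the highest of them, and the log2 fold change was -1.20 (SE 0.05). TFAP2A (NCBI gene 7020, chromosome 6, 10396677 to 10419659) had 20.9, 23.7 and 22.0 CPM in shPRAME and 17.5, 15.9 and 17.2 CPM in shCtrl. The groups did not overlap, but the difference was small, at a log2 fold change of 0.40 (SE 0.06).

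To set levels of different genes side by side, CPM were divided by the length of the longest annotated transcript, 5.773 kb for TFAP2B and 2.866 kb for TFAP2C. Which transcripts these cells use was not examined, so sums, shares and orders per kilobase depend on that choice. The 3 AP-2 mRNAs together stood at 45.5 ± 0.953 CPM per kilobase in shPRAME and 37.8 ± 0.994 in shCtrl (mean ± SD, n = 3 each). The sums of the groups, 44.8 to 46.6 in shPRAME and 36.7 to 38.6 in shCtrl, did not overlap. TFAP2B made up 55.5% ± 1.82 of this sum in shPRAME and 0.0473% ± 0.0228 in shCtrl. TFAP2C made up 31.8% ± 2.12 in shPRAME and 88.3% ± 0.355 in shCtrl, and TFAP2A 12.7% ± 0.832 in shPRAME and 11.7% ± 0.349 in shCtrl. TFAP2C thus supplied most AP-2 mRNA in control cells and TFAP2B the larger share in shPRAME cells, while the share of TFAP2A differed little, at 12.2% to 13.7% in shPRAME and 11.3% to 12.005% in shCtrl. Without division by length, the summed AP-2 counts were 6491, 7211 and 7303 in shPRAME and 3848, 3567 and 3543 in shCtrl, a wider gap. Of the 2 further AP-2 genes, TFAP2D, the neighbour family member on chromosome 6, had no count in any library, and TFAP2E had 14, 12 and 20 counts in shPRAME and 5, 10 and 11 in shCtrl (edgeR adjusted p = 0.0819).

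**Figure D2:**
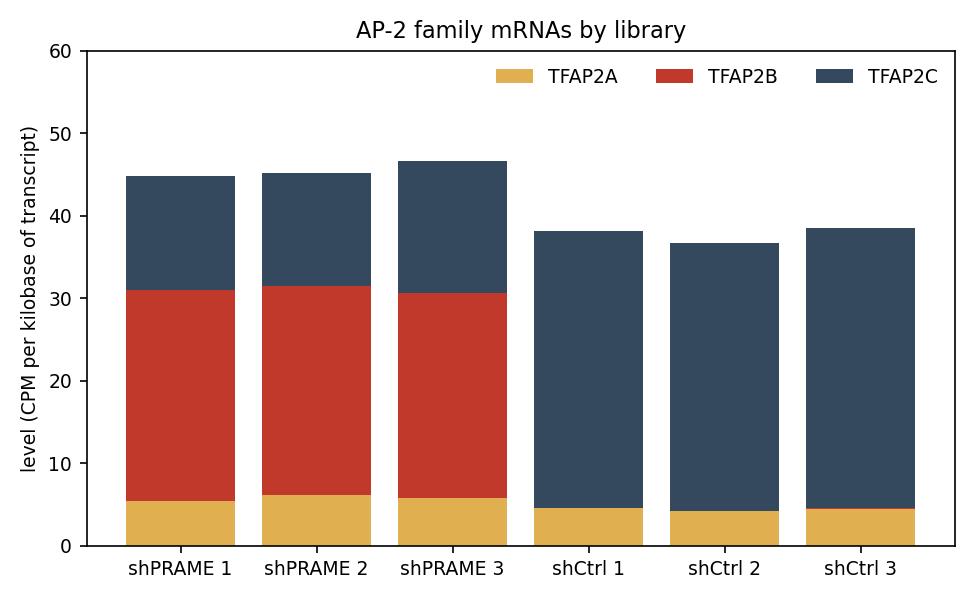
Stacked levels of TFAP2A, TFAP2B and TFAP2C in CPM per kilobase of the longest transcript, 1 bar per library, shPRAME left of shCtrl. TFAP2B is 53.5% to 57.0% of the bar in shPRAME and at most 0.0729% in shCtrl, where TFAP2C fills 88.0% to 88.7%.

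FOXD3 and PAX3, a crest specifier that holds back melanocyte differentiation and a paired-box factor that drives MITF, were both lower. FOXD3 (NCBI gene 27022, chromosome 1, 63322567 to 63325128) had 40, 31 and 53 counts in shPRAME and 332, 344 and 277 counts in shCtrl, or 1.24 ± 0.320 CPM in shPRAME and 9.78 ± 0.771 CPM in shCtrl. The lowest control library still held more than 5 times the counts of the highest shPRAME library. FOXD3 stood at 12.7% of its control level (log2 fold change -2.98, SE 0.14), and the counting interval of its ratio ran from 0.108 to 0.158. PAX3 (NCBI gene 5077, chromosome 2, 222199887 to 222298998) had 8.55, 9.52 and 9.65 CPM in shPRAME and 13.3, 13.1 and 13.2 CPM in shCtrl. Its control libraries were nearly identical, and all shPRAME libraries lay beneath them at 70.1% of the control level (log2 fold change -0.51, SE 0.07).

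The MSX homeobox genes, BMP-responsive repressors of the plate border and the limb bud, were both lower. MSX1 (NCBI gene 4487, chromosome 4, 4859665 to 4863936) had 5.12, 5.95 and 5.59 CPM in shPRAME and 11.5, 12.02 and 10.1 CPM in shCtrl, a log2 fold change of -1.01 (SE 0.09). MSX2 (NCBI gene 4488, chromosome 5, 174724582 to 174730896) had only 19, 24 and 31 counts in shPRAME and 131, 130 and 141 counts in shCtrl, or 0.734 ± 0.149 CPM in shPRAME and 4.14 ± 0.376 CPM in shCtrl. Neither gene's groups overlapped, and MSX2 stood at 17.7% of its control level (log2 fold change -2.48, SE 0.17). Per kilobase, MSX1 made up 89.8% ± 1.70 of MSX mRNA in shPRAME and 75.7% ± 3.27 in shCtrl, and the MSX sum was 3.19 ± 0.246 in shPRAME and 7.62 ± 0.358 in shCtrl.

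The MEIS genes, whose TALE homeodomain proteins bind DNA beside PBX and HOX factors, parted. MEIS1 (NCBI gene 4211, chromosome 2, 66435125 to 66573869) had 281, 305 and 330 counts in shPRAME and 111, 88 and 89 counts in shCtrl, or 8.995, 8.85 and 9.56 CPM in shPRAME and 3.28, 2.69 and 2.89 CPM in shCtrl. It was 3.09-fold higher in shPRAME (log2 fold change 1.63, SE 0.10). MEIS2 (NCBI gene 4212, chromosome 15, 36889204 to 37101311) had 23.0, 26.6 and 24.0 CPM in shPRAME and 25.4, 24.1 and 27.1 CPM in shCtrl, and the groups overlapped. Its log2 fold change was -0.05 (SE 0.06), and the counting interval of its ratio, scaled to the library totals, ran from 0.945 to 1.06. MEIS2 remained the larger part of MEIS mRNA per kilobase, at 73.9% ± 1.88 in shPRAME and 90.1% ± 0.924 in shCtrl.

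ETS1, which acts in cranial crest delamination and in invasive tumour cells, was the strongest member in control cells. It (NCBI gene 2113, chromosome 11, 128458765 to 128587558) had 122.7, 121.2 and 129.6 CPM in shPRAME and 225.9, 232.4 and 242.9 CPM in shCtrl. The groups lay far apart relative to their spread, and ETS1 stood at 53.3% of its control level (log2 fold change -0.91, SE 0.03).

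The order of the members by level per kilobase differed between the groups. In shPRAME, TFAP2B led at 25.3 ± 0.306 CPM per kilobase, with ETS1 at 24.2 ± 0.872, and the libraries of this pair overlapped. TFAP2C, TFAP2A, MEIS2, PAX3, MSX1, MEIS1, FOXD3 and MSX2 followed, and within that order TFAP2A and MEIS2 overlapped, as did PAX3 and MSX1. In shCtrl, ETS1 led at 45.5 ± 1.67 CPM per kilobase and TFAP2C came next at 33.4 ± 0.780. MSX1, MEIS2, FOXD3, TFAP2A and PAX3 then stood between 5.77 and 4.16 with each overlapping the next, and MSX2, MEIS1 and TFAP2B closed the order at 1.85, 0.578 and 0.0180. FOXD3 overlapped TFAP2A in control cells, and it stood at 0.594 ± 0.153 in shPRAME, above only MSX2. The spread over libraries was a median coefficient of variation of 6.98% in shPRAME and 6.90% in shCtrl, and was widest at the low counts of TFAP2B in shCtrl (50.2%) and FOXD3 in shPRAME (25.8%).

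The protein-coding genes whose profile over the 6 libraries lay nearest to a member were sought by root mean square distance in log2 CPM among 13062 genes. For TFAP2B these were the axon guidance receptor ROBO1, at 126.1, 122.8 and 118.7 CPM in shPRAME and 0.0592, 0.0612 and 0.0973 CPM in shCtrl (distance 0.30), and the neural factor SOX11 (distance 0.92), with 138.1 ± 1.57 CPM in shPRAME and 0.00986 ± 0.0171 CPM in shCtrl. For FOXD3 they were the sulfatase SULF1 (distance 0.18), with 1.21 ± 0.224 CPM in shPRAME and 11.03 ± 0.691 CPM in shCtrl, and CLEC11A (distance 0.27). For TFAP2A they were TYSND1 (distance 0.06) and the potassium channel subunit KCNG1 (distance 0.07).

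Where the members lie on the chromosomes was compared with what their surroundings did. The median log2 fold change of the 20 nearest tested genes, 10 on each side, was 0.32 around TFAP2A (13 higher, 1 lower), close to the gene's own 0.40, and -0.37 around PAX3 (3 higher, 14 lower), beside its own -0.51. Around ETS1 it was -0.49 (3 higher, 13 lower), beside -0.91 for ETS1 itself, and FLI1, the neighbouring ETS gene 97.6 kb away, had 3.24 ± 0.293 CPM in shPRAME and 10.6 ± 0.854 CPM in shCtrl (edgeR adjusted p = 1.17e-10). It was -0.28 around MSX2 (4 higher, 13 lower), beside -2.48 for MSX2 itself, and -0.16 around FOXD3 (6 higher, 9 lower), beside -2.98 for FOXD3. Overlapping antisense genes count among these neighbours, FOXD3-AS1 (-1.13) for FOXD3 and TFAP2A-AS1 (-0.59) for TFAP2A. TFAP2A, PAX3, ETS1, MSX2 and FOXD3 had the sign of their surrounding median, as did TFAP2B and MEIS1 at medians of 0.01 and 0.031. MSX1 had the opposite sign: 12 of its 20 neighbours were higher, none lower, and their median was 0.47. TFAP2C also lay below a higher median, at 0.27 (11 higher, 6 lower). The median was 0.01 around TFAP2B (9 higher, 8 lower), 0.031 around MEIS1 (8 higher, 6 lower) and 0.15 around MEIS2 (8 higher, 3 lower). The next tested protein-coding genes were often far off. C6orf141, 1256 kb from TFAP2B, had 16.2 ± 0.838 CPM in shPRAME and 32.6 ± 0.473 CPM in shCtrl (edgeR adjusted p = 9.66e-12). PKHD1, 768 kb from TFAP2B, was under 1 CPM in both groups. CPEB4, 763 kb from MSX2, had 31.2 ± 1.16 CPM in shPRAME and 75.9 ± 4.07 CPM in shCtrl (adjusted p = 4.11e-14). STK32B, 155 kb from MSX1, had 123.4 ± 1.15 CPM in shPRAME and 99.8 ± 1.16 CPM in shCtrl (adjusted p = 1.45e-08).

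**Figure D3:**
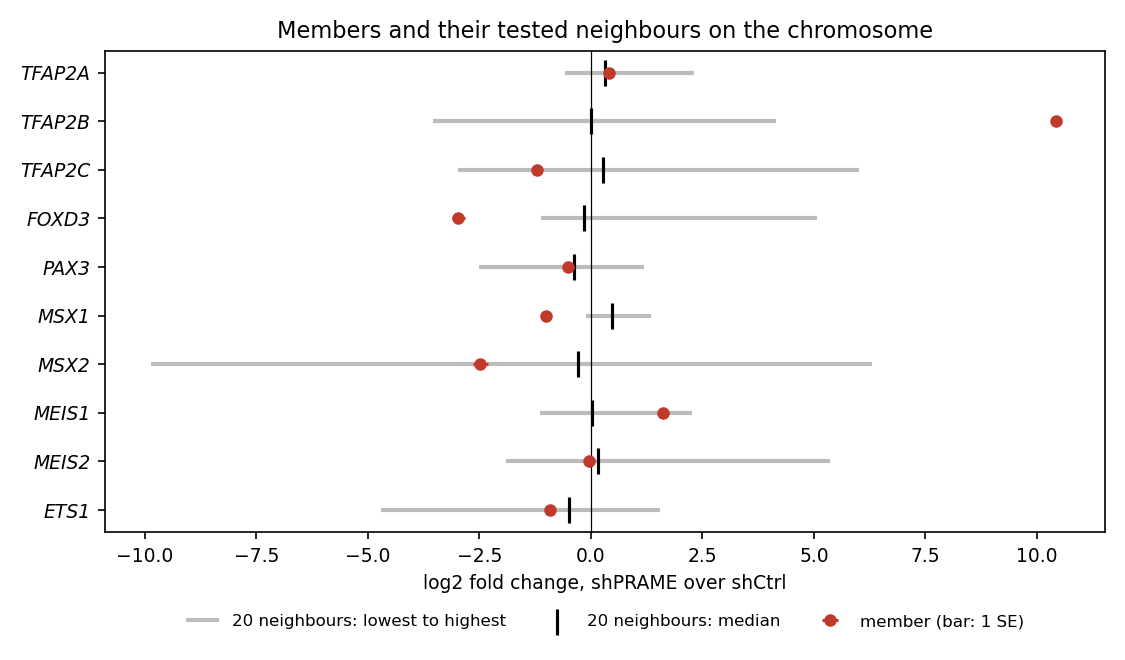
Log2 fold change of shPRAME over shCtrl for each of the 10 genes (point with 1 SE) beside the 20 nearest tested genes on its chromosome (grey line from lowest to highest, tick at the median). TFAP2B, FOXD3 and MSX1 lie outside the range of their neighbours, and TFAP2A and PAX3 lie near the median of theirs.

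Noncoding genes at the members' loci were read as well, although whether the counting used strand is not given in the sources used here, so reads of a member and of an antisense partner cannot be told apart where they overlap. FOXD3-AS1, an antisense RNA whose span (chromosome 1, 63320884 to 63324441) covers the FOXD3 promoter window, had 38, 34 and 47 counts in shPRAME and 83, 86 and 84 counts in shCtrl (log2 fold change -1.13, edgeR adjusted p = 7.13e-06). MEIS1-AS3, which starts upstream of MEIS1, had 31, 18 and 22 counts in shPRAME and 15, 6 and 12 in shCtrl (adjusted p = 0.0126), and LOC124900511, inside MEIS1, had 30, 29 and 46 counts in shPRAME and 16, 21 and 18 in shCtrl (adjusted p = 0.00501). TFAP2A-AS1 and TFAP2A-AS2 did not pass (adjusted p = 0.132 and 0.192), nor did LOC124903465 at the MEIS2 start (adjusted p = 0.0763). The 9 other noncoding genes at the loci had too few counts to test, at most 16 in any library, and LOC124901490 at the TFAP2B start had 1 count in all. Of all 31-base stretches of a member's GENCODE transcripts, 15% in TFAP2A, 9.34% in MSX2, 8.80% in FOXD3 and at most 3.60% in the other members occur in transcripts of another gene on either strand. TFAP2B shared 1 such stretch with TFAP2A and TFAP2C none with any gene.

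Paralogs of the members were often silent: 8 of 17 had too few counts to test, PAX1, PAX4 and TFAP2D with none. Of the 9 tested, 3 rose and 4 fell, with a median log2 fold change of 0.05. ETS2, the closest relative of ETS1, fell to 3.61 ± 0.117 CPM in shPRAME, against 14.03 ± 0.348 CPM in shCtrl (edgeR adjusted p = 8.37e-13), and MEIS3 to 5.10 ± 0.326 CPM, against 16.3 ± 0.671 CPM in shCtrl. The TALE gene PKNOX2 rose to 4.19 ± 0.161 CPM in shPRAME, against 0.939 ± 0.124 CPM in shCtrl. PAX9 had 4.06 ± 0.302 CPM in shPRAME and 3.33 ± 0.293 CPM in shCtrl (adjusted p = 0.0426), and this call was lost in 7 of 13 alternatives, among them those without shPRAME replicate 1 or 2 or shCtrl replicate 1 or 2, with adjusted p over all 13 from 0.0187 to 0.156.

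Partners of the AP-2 proteins moved both ways. Of 10 cofactors and inhibitors 6 rose and 2 fell, 80% of those tested, beside 74.4% called over all tested genes. The coactivator CITED2, which links AP-2 to the acetyltransferases CBP and p300, fell to 7.40 ± 0.587 CPM in shPRAME, against 48.9 ± 3.88 CPM in shCtrl (log2 fold change -2.72, edgeR adjusted p = 1.04e-15), and its relative CITED1 to 1.11 ± 0.159 CPM, against 2.24 ± 0.386 CPM in shCtrl. CITED4 rose to 6.88 ± 0.270 CPM in shPRAME, against 3.17 ± 0.177 CPM in shCtrl. KCTD15, an inhibitor of AP-2 activity in crest formation, rose to 72.2 ± 1.13 CPM in shPRAME, against 44.9 ± 1.87 CPM in shCtrl.

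Genes described elsewhere as AP-2 targets were also divided, with 4 higher and 5 lower of 11 tested and a median log2 fold change of -0.02. That is 81.8% called, beside 74.4% of all tested genes. IGFBP5 rose to 109.0 ± 5.18 CPM in shPRAME, against 18.1 ± 0.242 CPM in shCtrl (edgeR adjusted p = 2.89e-18), and MCAM, the melanoma adhesion molecule that AP-2 alpha is known to repress, to 449.9 ± 6.22 CPM, against 231.4 ± 3.32 CPM in shCtrl. VEGFA fell to 33.1 ± 1.10 CPM in shPRAME, against 58.3 ± 2.13 CPM in shCtrl, and NPM1 to 1171 ± 4.30 CPM, against 1732 ± 42.1 CPM in shCtrl. KIT, the melanocyte receptor that AP-2 activates, had no count in any library.

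**Figure D4:**
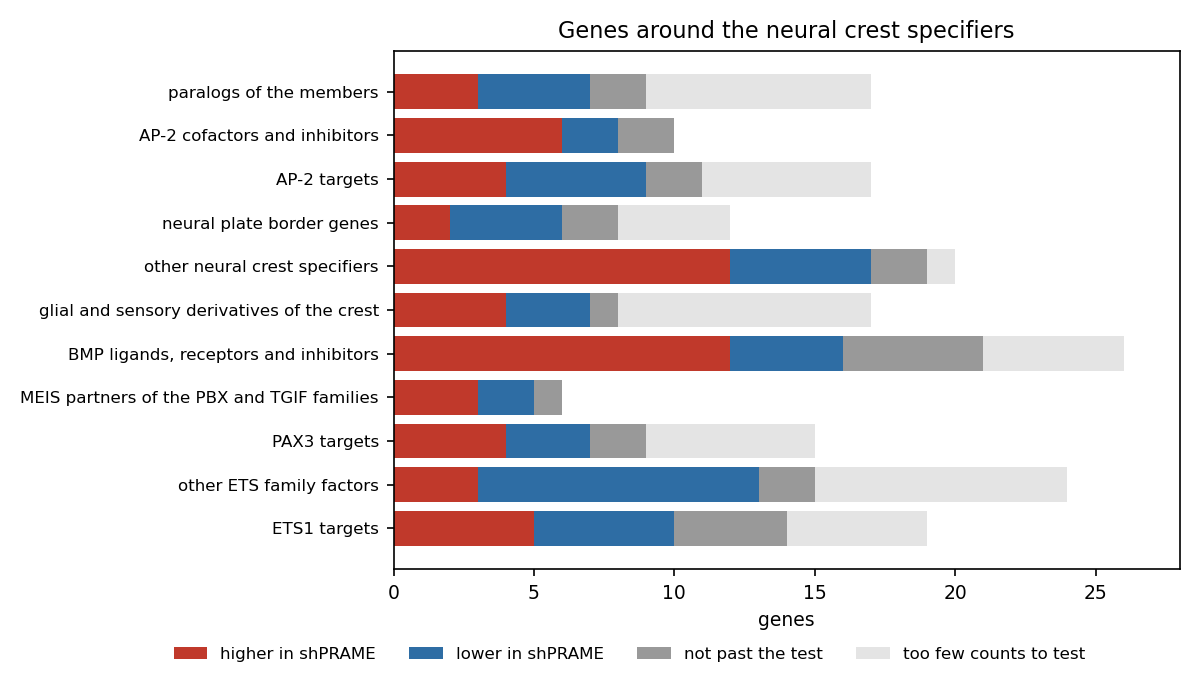
Number of genes in each of 11 lists around the members that were higher in shPRAME, lower in shPRAME, not past the test (edgeR adjusted p of 0.05) or too low to test. BMP genes and other crest specifiers hold 12 higher genes each, and ETS family factors 10 lower against 3 higher.

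Of 12 neural plate border genes 8 were tested, 2 rose and 4 fell (75% called), with a median log2 fold change of -0.45. The zinc finger genes ZIC2 and ZIC5, neighbours on chromosome 13, rose, ZIC5 to 3.30 ± 0.508 CPM in shPRAME, against 0.299 ± 0.0545 CPM in shCtrl (edgeR adjusted p = 1.52e-10). ZIC1 fell to 4.45 ± 0.360 CPM, against 7.23 ± 0.298 CPM in shCtrl, and PRDM1 to 5.12 ± 0.292 CPM, against 9.59 ± 0.687 CPM in shCtrl. Of 20 other crest specifiers 19 were tested, 12 rose and 5 fell (89.5% called, median log2 fold change 0.26). Over all tested genes 74.4% were called, 37.7% higher and 36.8% lower. SOX8, a SOXE factor that acts beside SOX9 and SOX10, had 1174, 1270 and 1253 counts in shPRAME and 1, 3 and 2 counts in shCtrl (adjusted p = 8.24e-19). SOX8 and NR2F1 passed the filter on low counts only through their shPRAME libraries. Both could hardly be called other than higher, and both stand among the 12. MYC rose to 76.1 ± 1.03 CPM in shPRAME, against 18.2 ± 0.557 CPM in shCtrl. RXRG fell to 10.2 ± 0.767 CPM, against 61.8 ± 3.27 CPM in shCtrl, and the orphan receptor gene NR2F2 to 42.4 ± 1.81 CPM, against 130.0 ± 3.85 CPM in shCtrl.

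Markers of crest derivatives, glia and sensory neurons, were tested for 8 of 17 genes, of which 4 rose and 3 fell. That is 87.5% called, beside 74.4% of all tested genes. EGR2, a Schwann cell regulator, rose to 5.31 ± 0.305 CPM in shPRAME, against 0.715 ± 0.170 CPM in shCtrl (edgeR adjusted p = 3.95e-11), and the neuregulin receptor ERBB3, a target of FOXD3 in melanoma, to 603.3 ± 12.3 CPM, against 322.2 ± 4.11 CPM in shCtrl. S100B fell to 28.2 ± 1.26 CPM in shPRAME, against 54.0 ± 0.629 CPM in shCtrl. The autonomic gene PHOX2A had no count in any library.

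BMP genes, whose pathway induces MSX1 and MSX2, rose more often than they fell. Of 21 tested, 12 rose and 4 fell (76.2% called), where 37.7% of all tested genes were called higher and 36.8% lower. The difference reached 2-fold for 8 of those that rose and for 1 that fell, where 10.1% of all tested genes were 2-fold higher and 8.43% lower. The median log2 fold change was 0.76 beside 0.01 over all tested genes. BMPR1B, SMAD9 and ID4 passed the filter on low counts only through their shPRAME libraries. Their calls could hardly be other than higher, and they stand in the 12, in the 8 and in this median. The ligand BMP6 rose to 29.7 ± 0.687 CPM in shPRAME, against 8.47 ± 0.0762 CPM in shCtrl (edgeR adjusted p = 1.33e-14). The decoy receptor BAMBI fell to 90.4 ± 2.57 CPM, against 252.5 ± 5.86 CPM in shCtrl, and the ligand trap FST to 44.4 ± 2.92 CPM, against 86.3 ± 4.12 CPM in shCtrl. The list did not move 1 way, as further genes named after their values were seen show. The inhibitors SMAD6 and NOG were higher, at 13.2 and 0.558 CPM in shPRAME and 5.11 and 0.308 CPM in shCtrl. BMPR2 and SMAD5 were lower, at 89.2 and 92.8 CPM in shPRAME and 121.0 and 113.6 CPM in shCtrl. ID1, a direct target of BMP-activated SMADs, rose to 59.0 ± 1.96 CPM in shPRAME, against 28.1 ± 1.09 CPM in shCtrl. Its relatives ID2, ID3 and ID4, named after their values were seen, were higher too, at 6.01, 31.6 and 2.57 CPM in shPRAME and 3.18, 15.0 and 0.185 CPM in shCtrl. MSX1 and MSX2, by contrast, lay lower in every shPRAME library.

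Among the 6 MEIS partners 3 rose and 2 fell (83.3% called, beside 74.4% of all tested genes). PBX3 rose to 29.8 ± 0.828 CPM in shPRAME, against 15.7 ± 1.14 CPM in shCtrl (edgeR adjusted p = 1.54e-10), and the repressor gene TGIF1 to 49.8 ± 2.36 CPM, against 31.3 ± 0.313 CPM in shCtrl. TGIF2 fell to 12.6 ± 0.361 CPM, against 15.5 ± 0.426 CPM in shCtrl.

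PAX3 targets were divided, with 4 higher and 3 lower of 9 tested and a median log2 fold change of 0.02. That is 77.8% called, beside 74.4% of all tested genes. MITF, the melanocyte master regulator, fell to 37.7 ± 0.740 CPM in shPRAME, against 44.6 ± 1.38 CPM in shCtrl (edgeR adjusted p = 2.05e-05). The receptor gene MET rose to 142.9 ± 3.07 CPM, against 75.9 ± 0.895 CPM in shCtrl, and TBX2 to 142.0 ± 2.58 CPM, against 88.0 ± 3.24 CPM in shCtrl. The pigment genes DCT and TYRP1 had at most 9 counts in any library.

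Of the other ETS family factors 15 were tested, 3 higher and 10 lower (86.7% called), with a median log2 fold change of -0.31. Over all tested genes 74.4% were called, 37.7% higher and 36.8% lower. Only 1 of the lower ETS genes reached 2-fold, and none of the higher ones. ETV3 fell to 71.9 ± 1.02 CPM in shPRAME, against 117.8 ± 3.49 CPM in shCtrl (edgeR adjusted p = 1.01e-12), and ELK4 to 84.1 ± 2.25 CPM, against 123.2 ± 0.387 CPM in shCtrl. ETV1 rose to 235.3 ± 2.15 CPM, against 165.0 ± 4.78 CPM in shCtrl, and ELK3 to 205.3 ± 2.23 CPM, against 151.8 ± 6.64 CPM in shCtrl. ETS1 targets had 5 higher and 5 lower of 14 tested (71.4% called). FLT1, the VEGF receptor, rose to 20.5 ± 2.05 CPM in shPRAME, against 0.640 ± 0.246 CPM in shCtrl (adjusted p = 9.42e-15), and TIMP1 to 235.1 ± 1.34 CPM, against 127.7 ± 1.99 CPM in shCtrl. SPP1, osteopontin, fell to 12.1 ± 0.703 CPM, against 29.9 ± 0.575 CPM in shCtrl, and the coreceptor NRP1 to 173.5 ± 3.72 CPM, against 240.6 ± 1.88 CPM in shCtrl. Over all 11 lists 127 of 179 genes were tested and 80.3% of these were called, beside 74.4% of all tested genes. Single lists ranged from 71.4% called (ETS1 targets) to 89.5% (other crest specifiers).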

How the data were processed

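Each of the 6 libraries came with a deposited file of whole-number counts per NCBI gene identifier, without normalization as the values show. Tools listed in the submitters' processing notes are Salmon, STAR and fastp, with hg38 and GRCh38 as builds. Their versions and roles, and any strand setting, were not found in these notes or in the labels. Repeated identifiers (34 rows) were added together. Symbols and coordinates came from RefSeq (GRCh38.p14), transcript lengths from the longest GENCODE 29 transcript.

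The quasi-likelihood test of edgeR 4.0.16 (R 4.3.3) was run 2-sided on group alone after filterByExpr and TMM scaling, with Benjamini-Hochberg adjustment over all tested genes and a threshold of 0.05, after a check on simulated counts. Genes with almost no counts in 1 group passed this filter through the other group, so the direction of their call was nearly fixed. Levels are TMM-scaled CPM. A standard error is the log2 fold change over the root of F. Alternatives used DESeq2 1.42.0, limma 3.58.1 and the settings named in the closing section. Replicates of a group differed by more than counting noise (chi-square per degree of freedom 2.57 to 9.02).

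The members and all lists were chosen with earlier results of these data known. Besides the members and PRAME, genes were named by rule: up to 2 per list and direction with the smallest adjusted p at a mean of at least 1 CPM, noncoding genes overlapping a member or starting within 5 kb, the next tested protein-coding genes, and the 2 nearest profiles of TFAP2A, TFAP2B and FOXD3. Some genes that the rule names are not reported here. Other named genes were chosen after their values were seen. The neighbouring genes given are those whose values bear on a member.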

Additional observations from a re-analysis of the deposited data

How the results depend on the processing

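All 10 members kept their call, or the lack of one, and their direction under the 13 alternatives: RLE factors, library totals only, no filter on low counts, at least 1 CPM in 3 libraries, DESeq2, limma-voom, the replicate block and each library left out. MEIS2 ranged from -0.11 to -0.0029 in log2 fold change and TFAP2B from 10.15 to 10.85. Scaling to library totals put the median of all genes at 0.06, beside 0.01 with TMM. Counts over lists stayed within 1.5 times throughout, and of the genes named from the lists PAX9 alone lost its call.

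Regional medians depended on the window. With 5 tested genes on each side the median log2 fold change was 0.22 around TFAP2A, 0.23 around TFAP2B, 0.31 around TFAP2C, -0.30 around FOXD3, 0.17 around MSX1, -0.41 around MSX2, 0.72 around MEIS1, 0.19 around MEIS2 and -1.60 around ETS1. With 20 on each side it was 0.29 around TFAP2A, 0.23 around TFAP2B, 0.52 around MSX1, 0.031 around MEIS2 and -0.28 around ETS1. The cause was not tested.

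Replicate numbers did not pair the libraries (correlations of same-numbered deviations -0.02, -0.07 and -0.05), and no library correlated best with its own number. With the replicate block 11603 genes were called in place of 11875. Depth limits TFAP2B in shCtrl and FOXD3 and MSX2 in shPRAME, where few counts stand behind each value.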
